A study of Mus musculus with 2 samples.

Results

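Keratin genes and keratin-associated protein genes were examined for R-loops in mouse neural stem/progenitor cells (NSPCs), a cell type in which the keratins of skin and hair are not the characteristic intermediate filaments. The group was taken as every protein-coding gene of the GENCODE M1 annotation (mm9) whose symbol begins with Krt and a digit, or with Krtap. This gave 97 of 22367 protein-coding genes: 28 type I keratin genes, 23 type II keratin genes and 46 keratin-associated protein genes. Another 7 entries named in this way were not annotated as protein-coding and were left out.

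The mapping method was DRIP-seq, in which restriction-digested genomic DNA is precipitated with S9.6, an antibody that binds RNA:DNA hybrids, and then sequenced. The cells were primary NSPCs of C57BL/6 mice, isolated from frontal brain at postnatal day 7 and grown for 48 h with aphidicolin, an inhibitor of replicative DNA polymerases, at 0.5 μM. Both labelled samples, the S9.6 precipitate and its input, came from the same kind of treated cells, so no untreated group enters any comparison. The S9.6 sample had 1 list of 22132 peaks, given as positions without read counts, height or replicate columns; no values of the input were used here. Consequently there was no replicate error, depth was unknown, and the comparisons below are counts and percentages without a test. Absence of a gene from the list states only that no peak was called there. Transcription was not measured in these files, so whether a keratin gene was silent in these cells was not tested, and neither were markers of NSPCs or of epithelial cells.

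Keratins are the intermediate filaments of epithelia, built as obligate pairs of a type I (acidic) and a type II (basic to neutral) chain. Simple epithelia typically use Krt8 and Krt18, basal keratinocytes Krt5 and Krt14, and differentiating keratinocytes Krt1 and Krt10, while hair keratins are embedded in a matrix of cysteine-rich or glycine- and tyrosine-rich keratin-associated proteins. An R-loop forms when RNA anneals to its DNA template and displaces the other strand, typically during transcription through G-rich non-template sequence.

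Of the 97 keratin genes, 1 overlapped an R-loop peak by at least 1 bp (1.03%, exact 95% binomial interval 0.0261% to 5.61%, an interval that treats genes as independent although most lie side by side). Across all protein-coding genes the share was 39.6%. The gene was Krt28, a type I keratin of the inner root sheath of the hair follicle. None of the 23 type II genes and none of the 46 keratin-associated genes overlapped a peak. No transcription start site (TSS) of the 97 genes lay in a peak, against 14.9% of all protein-coding genes, and no annotated transcript end of the 97 did. When 2 kb were added on each side, 6 of the 97 had a peak, against 43.1% of all protein-coding genes.

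The peak in Krt28 was 0.763 kb long (mm9 chr11:99226898-99227660), in a gene of 10.0 kb on the minus strand of chromosome 11. It lay inside the gene but over no annotated exon, far from the TSS and nearer to the 3' end. Its GC content was 40.1%, and on the plus strand it held 226 G and 80 C. The plus strand is the template strand of Krt28, so the G-rich strand of this peak is not the one that matches the Krt28 transcript.

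The 5 keratin genes that came nearest to a peak without overlap were Krt1 at 310 bp, Krtap8-2 at 442 bp, Krtap17-1 at 556 bp, and Krt83 and Krtap5-3 at 700 bp each. Krt1 encodes the type II keratin of differentiating epidermis, and its peak lay downstream of the gene. Krt83 encodes a type II hair keratin, and its peak lay upstream. Krtap17-1 and Krtap5-3 had the peak upstream, and Krtap8-2 had it downstream. Sequence from 4 peaks, that in Krt28 and those near Krt1, Krtap17-1 and Krtap8-2, is shown because most peaks inside the clusters held sequence tracts, which the choice of genes did not use, and the 4 range from a peak with many tract bases to one with none. Each line gives 120 bases of the plus strand of mm9: the stretch richest in tract bases or, for Krtap8-2, whose peak held none, the middle of the peak. Capitals mark bases in a tract of at least 30 bp, defined as an exact tandem repeat of units of 1 to 6 bases, a run of purines or of pyrimidines only, or a run that alternates purine and pyrimidine.
Krt28 (chr11:99226996-99227115, plus strand): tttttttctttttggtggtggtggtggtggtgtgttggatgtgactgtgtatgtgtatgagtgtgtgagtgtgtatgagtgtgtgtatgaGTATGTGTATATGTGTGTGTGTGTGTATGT
Krt1 (chr15:101675059-101675178, plus strand): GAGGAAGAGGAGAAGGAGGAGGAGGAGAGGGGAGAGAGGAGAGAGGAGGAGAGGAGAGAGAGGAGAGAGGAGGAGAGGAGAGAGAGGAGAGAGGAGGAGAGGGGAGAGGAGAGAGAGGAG
Krtap17-1 (chr11:99856111-99856230, plus strand): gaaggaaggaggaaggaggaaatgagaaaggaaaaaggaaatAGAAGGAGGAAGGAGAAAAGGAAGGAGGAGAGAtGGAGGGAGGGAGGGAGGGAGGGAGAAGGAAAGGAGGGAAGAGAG
Krtap8-2 (chr16:88895514-88895633, plus strand): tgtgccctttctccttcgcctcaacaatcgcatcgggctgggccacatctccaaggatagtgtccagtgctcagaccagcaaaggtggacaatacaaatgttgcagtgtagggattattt
The Krt1 stretch was purine on the plus strand in all 120 bases, and the Krtap17-1 stretch had 77 bases in purine runs. The Krt28 stretch was rich in TG steps, of which 30 bases met the definition of a tract.

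**Figure D1:**
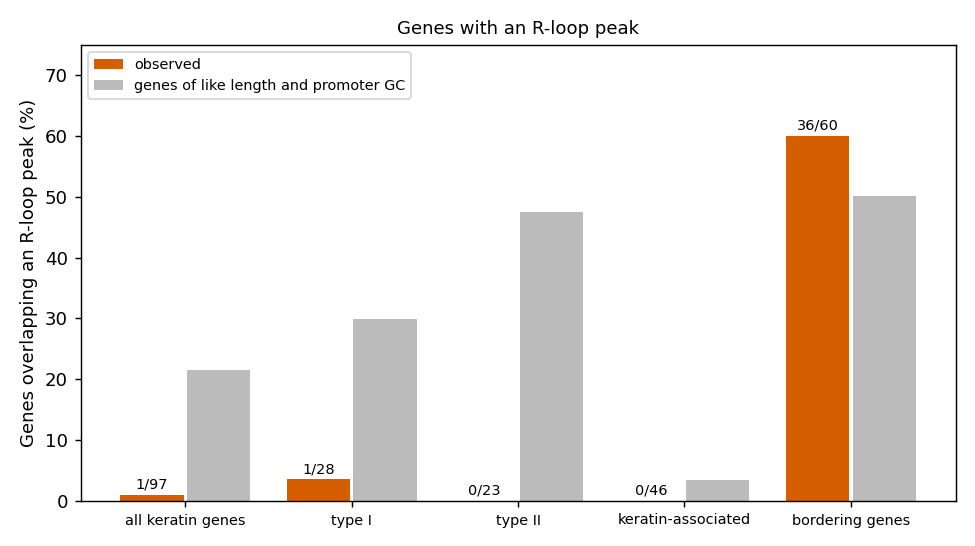
Percentage of genes overlapping an R-loop peak (vertical axis) in all keratin genes, in each family and in the genes bordering the keratin clusters; orange bars are the observed share, with counts above them, and grey bars the share in non-keratin protein-coding genes of like length and promoter GC. The orange bar is below its grey bar in each keratin group, at 1 of 97 against 21.5% for all of them, and above it in the bordering genes, at 36 of 60 against 50.1%.

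A short gene offers less length for a peak to fall on, and keratin genes were short, with a median length of 3.91 kb (0.304 to 22.7 kb) against 15.6 kb for other protein-coding genes. Non-keratin protein-coding genes were therefore placed in 10 classes of length by 10 classes of promoter GC content (2 kb on either side of the TSS), and their share with a peak was weighted by the number of keratin genes in each class. In genes of like length and promoter GC, 21.5% had a peak, which would correspond to 20.8 of 97 keratin genes, and 1 was observed. For the type I genes the like genes gave 29.9%, or 8.38 of 28, and 1 was observed. For the type II genes, which are longer (median 8.28 kb) and more GC-rich, they gave 47.4%, or 10.9 of 23, and 0 were observed; an exact 95% interval for 0 of 23 reaches 14.8%. For the keratin-associated genes, with a median length of 0.855 kb, they gave 3.36%, or 1.55 of 46, and 0 were observed. Like genes of this size rarely had a peak, and 3.36% lies within the exact 95% interval of the 0 of 46, which reaches 7.71%. These intervals treat genes as independent although most lie side by side, so they do not serve as tests. By the expected counts alone, the difference between the keratin genes and like genes lay mainly in the type I and type II genes.

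The starts of keratin genes also differed from those of other genes in ways that the comparison on GC content did not take up. A CpG-rich start was defined as an observed-to-expected CpG ratio of at least 0.6 and a GC content of at least 50% within 500 bp of the TSS. None of the 97 keratin genes had such a start, against 44.4% of the other protein-coding genes. The CpG ratio of keratin genes ranged from 0.0240 to 0.583 with a median of 0.238, against a median of 0.551 in the others. Among non-keratin genes, 61.6% of those with a CpG-rich start and 22.4% of the rest had a peak. In non-keratin genes without a CpG-rich start and no longer than the longest keratin gene, 15.7% of 8681 had a peak. With length and CpG ratio as the 2 measures of likeness, a comparison chosen after these values were seen, the expected share was 13.0%, or 12.6 of 97 keratin genes, still above the 1 observed.

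The hexamer TATAAA, which is the core of the TATA box, stood within the 50 bases before the annotated TSS in 45 of 97 keratin genes on the strand of the gene, or 46.4%. Across all protein-coding genes this was 3.09%. By family it was found in 14 of 28 type I, 4 of 23 type II and 27 of 46 keratin-associated genes. On the opposite strand, where it reads TTTATA, it was found in 1 keratin gene, and in 1.01% of all protein-coding genes. Of the 647 non-keratin genes with TATAAA in this window, 16.1% overlapped a peak. These genes were short, with a median of 5.35 kb, and 16.7% of them had a CpG-rich start. Their share with a peak was close to the 15.7% given above for short non-keratin genes without a CpG-rich start. A link between the hexamer and peaks was not tested. The 80 bases before the annotated TSS are shown for Krt28, for Krtap17-1, for Krt10 of differentiating epidermis, for the basal pair Krt14 and Krt5, for the simple-epithelial pair Krt8 and Krt18, and for Eif1 and Eif4b, the nearest genes on the far side of a cluster border. Each is written 5' to 3' on the gene's own strand in mm9, with TATAAA in capitals.
Krt10 (chr11:99250679-99250758, minus strand): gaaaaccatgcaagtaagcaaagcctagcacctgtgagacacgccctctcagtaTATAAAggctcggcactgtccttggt
Krt28 (chr11:99236218-99236297, minus strand): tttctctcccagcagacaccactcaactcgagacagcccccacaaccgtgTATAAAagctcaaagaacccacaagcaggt
Krtap17-1 (chr11:99855309-99855388, minus strand): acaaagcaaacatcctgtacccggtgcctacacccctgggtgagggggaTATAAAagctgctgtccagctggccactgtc
Krt14 (chr11:100068863-100068942, minus strand): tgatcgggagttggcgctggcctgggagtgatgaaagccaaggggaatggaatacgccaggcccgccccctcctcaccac
Krt5 (chr15:101543323-101543402, minus strand): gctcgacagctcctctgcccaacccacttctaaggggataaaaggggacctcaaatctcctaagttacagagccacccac
Krt8 (chr15:101834774-101834853, minus strand): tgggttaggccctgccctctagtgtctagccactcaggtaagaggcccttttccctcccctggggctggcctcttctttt
Krt18 (chr15:101858567-101858646, plus strand): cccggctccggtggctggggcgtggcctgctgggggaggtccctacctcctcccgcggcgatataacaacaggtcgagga
Eif1 (chr11:100181119-100181198, plus strand): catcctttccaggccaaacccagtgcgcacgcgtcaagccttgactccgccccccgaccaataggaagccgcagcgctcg
Eif4b (chr15:101904124-101904203, plus strand): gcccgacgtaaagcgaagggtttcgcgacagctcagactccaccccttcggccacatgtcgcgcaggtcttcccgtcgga
In Krt10 the hexamer began 26 bases before the TSS, in Krt28 30 and in Krtap17-1 31. In the other 6 stretches these letters did not occur, which says nothing of other forms of the element. The TSS used is the 5' end of the annotated gene model and may differ from the start in use.

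Further sequence measures were as follows. GC skew, (G − C)/(G + C) over the 1 kb from the TSS on, read on the gene's own strand, had a median of 0.061 in type I, 0.073 in type II and −0.14 in keratin-associated genes, against 0.039 in other protein-coding genes. The medians of type I and type II genes were therefore not below that of other genes. Of the 46 keratin-associated genes, 34 had more C than G on the non-template strand and 12 had more G than C, Krtap5-3 and Krtap17-1 among the latter. The restriction fragment that held the TSS had a median length of 1.45 kb for keratin genes and 1.53 kb for others. Because keratin genes arose by duplication, the share of 32-base words of each gene that occur at a single place in mm9 was also measured. It had a median of 96.1% in type I, 95.9% in type II and 75.4% in keratin-associated genes. The lowest share was 10.5%, in Krtap4-13, and 16 of the 97 genes were below 60%. In the 50 keratin genes with at least 90% unique words, 1 had a peak, against 28.4% in like genes, or 14.2 of 50. The part of repeated sequence in the result was not tested beyond this count.

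A total of 92 keratin genes lay in 3 clusters, defined as at least 5 members with gaps of at most 500 kb. The cluster on chromosome 11 (99094075 to 100131185) held 27 type I and 22 keratin-associated genes, and that on chromosome 15 (101177875 to 101862457) held the 23 type II genes and Krt18. The cluster on chromosome 16 (88610954 to 89571428) held 19 keratin-associated genes. The remaining 5 were Krtap5-2, Krtap5-3, Krtap5-4 and Krtap5-5 on chromosome 7 and Krtap12-1 on chromosome 10, between 0.700 and 28.1 kb from a peak. The 3 clusters together spanned 2.68 Mb and held 16 peaks, or 5.97 per Mb, covering 0.400% of their bases. The 500 kb on each side held 82 peaks, or 27.3 per Mb, covering 8.54%. Chromosomes 11, 15 and 16 as a whole held 11.2 peaks per Mb covering 2.59%.

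**Figure D2:**
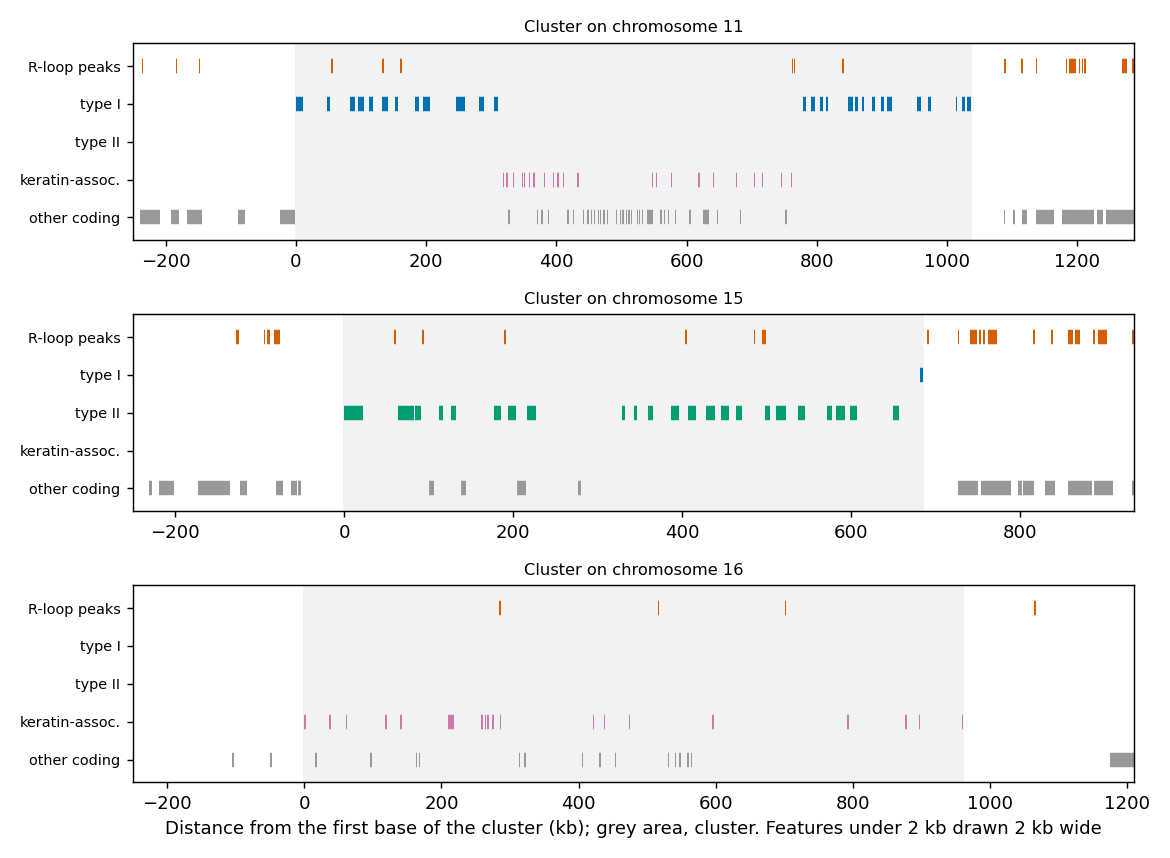
R-loop peaks and protein-coding genes (rows) along the 3 keratin clusters (grey area) and 250 kb on each side, by distance from the first base of the cluster in kb. Peaks (orange) are less frequent inside the clusters than in the 250 kb on each side on chromosomes 11 and 15 but not on chromosome 16. The longest peak-free stretch inside the chromosome 11 cluster is 599 kb.

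The clusters were not alike in this respect. On chromosome 11 the cluster held 6 peaks over 1037 kb (0.465% of bases), while its flanks held 17 and 26 peaks (15% and 12.1%). On chromosome 15 the cluster held 7 peaks over 685 kb (0.644%), while its flanks held 14 and 23 (7.63% and 16.2%). On chromosome 16 the cluster held 3 peaks over 960 kb (0.157%), and its flanks held 1 each (0.129% and 0.147%). The chromosome 16 cluster was thus as sparse as the 500 kb around it, and the contrast between clusters and flanks came from chromosomes 11 and 15. In peaks per Mb, the clusters on chromosomes 11 and 16 (5.785 and 3.12) were below their whole chromosomes (14.78 and 8.14). The chromosome 15 cluster, at 10.23 per Mb, was not below its whole chromosome, at 9.70. Its covered share was lower, at 0.644% against 2.33%.

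**Figure D3:**
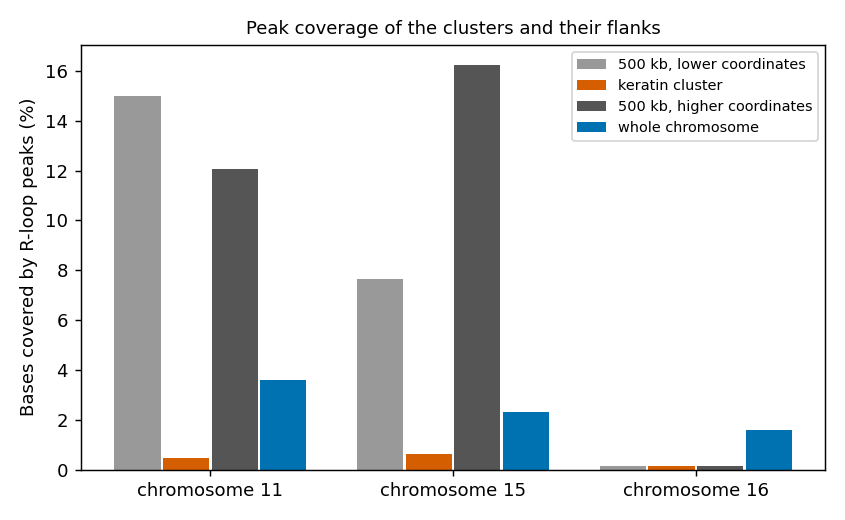
Percentage of bases covered by R-loop peaks (vertical axis) in each keratin cluster, in the 500 kb on its 2 sides and on the whole chromosome. The orange bars of the clusters are 0.465%, 0.644% and 0.157%, below both flanks on chromosomes 11 and 15 and level with them on chromosome 16.

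Within the chromosome 11 cluster, the stretch without a peak ran for 599 kb and held 27 keratin genes, from Krt12 through the keratin-associated genes to Krtap17-1. On chromosome 15 the longest such stretch was 213 kb and held 6 type II genes, among them Krt5 at 37.6 kb from the nearest peak. On chromosome 16 a stretch of 662 kb, which began outside the cluster, held 10 keratin-associated genes. At the other ends of the range, Krt18 was 5.41 kb from a peak that lay beyond the border of the cluster and Krt8 33.1 kb from the same peak. Krt10 was 3.98 kb from a peak, whereas Krt14 was 112 kb from the nearest one, which lay at Eif1 outside the cluster. Thus the members of each of the 3 textbook pairs differed in their distance to a peak, and no member of the 3 pairs overlapped one.

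Over all keratin genes the median distance to the nearest peak was 44.7 kb (0 to 283 kb), against 8.30 kb for other protein-coding genes. Non-keratin genes without a CpG-rich start and no longer than the longest keratin gene had a median of 46.5 kb. By this measure keratin genes were thus no farther from a peak than such genes. Among keratin genes the median was 30.02 kb for type I, 25.6 kb for type II and 132 kb for keratin-associated genes. A peak was found within 5 kb of 13 of the 97 (13.4%), against 46.9% of other protein-coding genes, within 10 kb of 16 (16.5% against 51.4%) and within 100 kb of 68 (70.1% against 78.9%). The 13 genes within 5 kb were Krt28, Krt24 and Krt10 of type I, Krt1, Krt7, Krt74, Krt82, Krt83 and Krt84 of type II, and Krtap5-3, Krtap5-4, Krtap8-2 and Krtap17-1, named after their values were seen. The separation from all other protein-coding genes was therefore wide close to the genes and narrower at 100 kb.

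**Figure D4:**
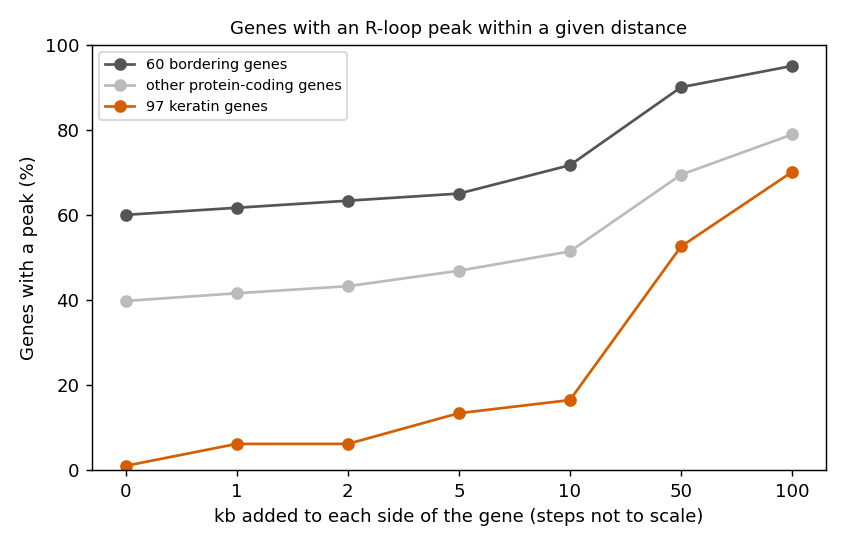
Percentage of genes with an R-loop peak (vertical axis) when 0 to 100 kb are added to each side of the gene (horizontal axis, steps not to scale), for the 97 keratin genes, the 60 bordering genes and the other protein-coding genes. The keratin line lies lowest at each step, from 1.03% at 0 kb to 70.1% at 100 kb.

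The genes bordering the clusters were taken as the 10 nearest non-keratin protein-coding genes on each side, 60 entries in all, of which Scn8a had 2. Of these, 36 overlapped a peak (60%, exact 95% interval 46.5% to 72.4%), against 50.1% in genes of like length and promoter GC and 1.03% in the keratin genes. The interval treats genes as independent, although they are neighbours and some share a peak, such as Tenc1 and Spryd3. The 50.1% of like genes lies within it. The counts were 13 of 20 on chromosome 11, 13 of 20 on chromosome 15 and 10 of 20 on chromosome 16. On chromosome 16 the bordering genes reached up to 1355 kb from the cluster, so that they lay mostly beyond the sparse flanks. A peak covered the TSS in 9 of the 60, a share near the 14.9% of all protein-coding genes. The bordering genes were also longer, with a median of 12.75 kb against 3.91 kb in keratin genes. A CpG-rich start was present in 34 of the 60 and in 0 of 97 keratin genes. The part of this CpG difference in the contrast was not tested, since the comparison on CpG ratio given above did not include the bordering genes.

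On chromosomes 11 and 15 the nearest bordering genes with a peak lay between 41.7 and 143.5 kb from the cluster, depending on the side. Beyond Krt42, the last keratin gene of the chromosome 11 cluster, Eif1, a translation initiation factor, lay at 50.0 kb and had 2 peaks over 43.6% of its length, its TSS included; all 80 bases shown above for Eif1 lie in the peak over its TSS. On the other side Smarce1, a chromatin remodelling subunit only 1.74 kb from Krt222, had no peak, and the first gene with one was Tns4 at 143.5 kb. Next to Krt18 on chromosome 15, Eif4b, another translation initiation factor, lay at 41.7 kb with 40.4% of its length covered, its TSS included. On the side of Krt80, Nr4a1, an immediate-early nuclear receptor, lay at 72.7 kb with 57.3% covered, also with its TSS. On chromosome 16 the nearest were Grik1, a glutamate receptor gene, at 321 kb, and Tiam1, an activator of Rac, at 216 kb, both with less than 1% of their length covered.

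Besides the keratin genes, the clusters contained 52 protein-coding genes whose symbols did not place them in the group, and 0 of the 52 overlapped a peak. They were short, with a median length of 0.460 kb, and genes of like length and promoter GC had a peak in 4.86%, or 2.53 of 52, so that this 0 lies close to what like genes gave; over all protein-coding genes the share was 39.6%. For 32 of them the RefSeq table (used for names only) held the same symbol or synonym, and 4 of these were listed there under keratin names, such as 1700011A15Rik as Krt88 and 4732456N10Rik as Krt90. The count of 1 gene with a peak was therefore the same when the genes with keratin names in RefSeq were added to the 97.

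The 16 peaks inside the clusters were described by width and composition. A tract of at least 30 bp, as defined above, was present in 14 of 16 (87.5%), and tract bases made up a median of 25.1% of the peak. In the flanks 39 of 82 peaks (47.6%) held a tract, over bordering genes 44.9% did, and over all peaks 51.8%. The cluster peaks were narrow, with a median width of 0.491 kb against 2.10 kb in the flanks, and 14 of 16 lay over no annotated gene of any kind; the exceptions lay in Krt28 and in the noncoding Gm11571. Among all peaks of the same range of widths over no annotated gene, 69.5% of 4088 held a tract, with a median of 10.6% tract bases. In the flanks themselves 7 peaks were of this class, and 6 of them (85.7%) held a tract, close to the share in the clusters, with a median of 5.45% tract bases. The cluster peaks are therefore to be read against that class, from which they differed less than from all peaks. Their strands were also unequal in G and C, with a median absolute value of (G − C)/(G + C) of 0.422. It was 0.060 in all flank peaks, 0.249 in the 7 flank peaks of like width over no annotated gene and 0.362 in all peaks of that class.

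**Figure D5:**
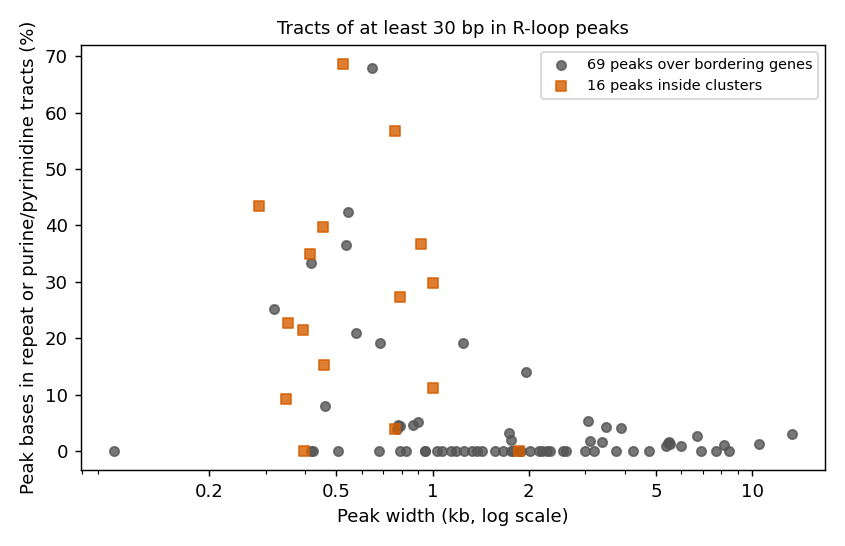
Percentage of peak bases in tracts of at least 30 bp (vertical axis) by peak width in kb (horizontal axis, log scale), 1 point a peak, for the 16 peaks inside the keratin clusters and the 69 over bordering genes. Of the cluster peaks 10 have at least 20% tract bases and 3 are at least 1 kb wide, whereas bordering genes carry many wide peaks with few tract bases.

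Among the 16 peaks inside the clusters, that between Krt24 and Krt25, both genes of type I keratins, had the highest share of tract bases, at 68.6%, all in purine-pyrimidine alternation, with 175 G and 60 C on the plus strand. The 2 peaks nearest to Krtap17-1 differed: the one at 0.556 kb had 314 G and 54 C with 27.4% in purine runs, and the one at 3.13 kb had 94 G and 120 C with 15.3% tract bases. Of 7 peaks in the chromosome 15 cluster, 3 lay downstream of Krt1 and upstream of Krt2, at 0.310, 2.74 and 12.4 kb from Krt1. The peak with most tract bases on chromosome 16, 56.7%, was 90.5 kb from the nearest keratin gene, Krtap16-7. Each of the 4 peaks nearest to the keratin-associated genes outside the clusters also held a tract: the peak nearest to Krtap5-2 had 70.3% tract bases with 23 G and 211 C, that of Krtap5-3 6.12% with 257 G and 79 C, that of Krtap5-4 17.1% with 55 G and 391 C, and that of Krtap12-1 16.0% with 120 G and 42 C.

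The sequence of the clusters was not unusual in tracts. Of windows of 500 bp, 16.0% held one in the clusters, 16.1% in the flanks and 14.2% across the genome. Of the 858 tract-bearing windows of the clusters, 23 (2.68%) met a peak. Among all 5361 windows of the clusters 40 did, so tract-bearing windows met a peak more often than the others. The 2 cluster peaks with no tract were the one near Krtap8-2 and one of 1.87 kb upstream of Krt10. When only peaks without a tract were kept, a choice made after the sequences had been read, 0 of 97 keratin genes, 26 of 60 bordering genes and 26.5% of all protein-coding genes had a peak. The keratin count was fixed in advance, since the Krt28 peak was already known to hold a tract, with 30 tract bases. This choice left out 51.8% of all peaks.

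The other genes of the intermediate filament family were compared as a list, with no call drawn from its size. Of 16 non-keratin intermediate filament genes, 7 overlapped a peak (43.8%, against 57.1% in like genes and 39.6% of all protein-coding genes). Vim and Nes, which encode vimentin and nestin, each had 1 peak that covered the TSS, over 29.0% and 35.3% of the gene. The lamin genes Lmna and Lmnb1 had 5 and 1 peaks, with 48.9% and 1.39% of their length covered, and Lmnb2 had 0. The muscle-associated Synm and Sync had 2 and 1 peaks. Of the neuronal filament genes, Nefh had 1 peak, and Nefl, Nefm, Ina and Prph had 0. The astrocytic Gfap, the muscle gene Des and the lens genes Bfsp1 and Bfsp2 also had 0, with the nearest peak to Gfap at 1.66 kb. The share of this list was thus near that of all protein-coding genes and below that of like genes. Its genes were longer than the keratin genes, with a median of 15.3 kb, and 11 of the 16 had a CpG-rich start. Whether the list differs from the keratin genes beyond this was not tested.

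Lists of other epithelial genes had shares between those of the keratin genes and of the bordering genes. Across all protein-coding genes the share was 39.6%. Of 55 genes of epidermal differentiation (51 symbols, since Flg has 5 entries), 3 overlapped a peak (5.45%, against 11.3% in like genes): Tchh, which encodes trichohyalin, Cdsn, which encodes corneodesmosin, and Tgm5, a transglutaminase. In Tchh a peak of 4.41 kb covered 65.3% of the gene, wider than any peak inside the keratin clusters. Of 26 genes of desmosomes and hemidesmosomes, to which keratin filaments attach, 9 had a peak (34.6%, against 51.0%), among them Jup, which borders the chromosome 11 cluster. Of 17 epithelial transcription factor genes, 5 had a peak (29.4%, against 56.1%). It covered the TSS in 3 of the 17, Klf4, Esrp2 and Tcfap2a, a share near the 14.9% of all protein-coding genes. In each of the 4 lists the share was below that of like genes, by the most percentage points in the transcription factors. No interval was computed for these small lists, and most of the epidermal differentiation genes lie side by side on chromosome 3. Whether the lists differ from like genes was therefore not tested.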

How the data were processed

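The authors trimmed the DRIP-seq reads with Trim Galore 0.6.6 (per the labels), aligned them to mm9 and, after removal of duplicates, found peaks by a Hidden Markov Model; how replicates were combined into 1 list is not given in the sources used here. The deposited list holds 1 line a peak with its chromosome and both limits, with no count, score or signal; the authors deposited no unit other than these positions in it.

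Genes were those of GENCODE M1 on NCBIM37, the same build. A gene had a peak when at least 1 bp overlapped. Python 3.11.15, numpy 2.4.6, scipy 1.17.1 and matplotlib 3.10.9 were used, and overlaps, distances and tracts were tested on simulated data. Named genes were fixed by rule: members with a peak, the 5 nearest without one, Krt8, Krt18, Krt5, Krt14, Krt1 and Krt10, the nearest bordering genes with a peak, and the other intermediate filament genes; others were named after their values were seen. The members and gene lists were chosen with earlier results of these data known. Classes of length and GC were fixed weights, with no draw. The input sample was not used here.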

Additional observations from a re-analysis of the deposited data

How the results depend on the processing

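With peaks of at least 1 kb only, 0 keratin genes had a peak, the clusters held 3 peaks over 0.144% of their bases, the median distance from a keratin gene to a peak was 171 kb, and 4 other intermediate filament genes and 3 epithelial transcription factors had a peak. At the same limit 19.1% of genes of like length and promoter GC and 26 of 60 bordering genes had a peak. For the gene lists no such share is given here. With 2 kb added to each side, 6 keratin genes had a peak, against 25.3% in like genes. With only peaks that held no tract of 30 bp, chosen after seeing the data, the values were 0 keratin genes, 13.9% in like genes, 2 cluster peaks, 43 flank peaks, 3 transcription factors and a median distance of 188 kb. That 0 was fixed in advance by the tract in the Krt28 peak. Likeness by length and CpG ratio, also chosen after seeing the data, gave 13.0%. In all, 37 recomputed values moved by at most 1.5 times, among them the 19.1%, the 26 of 60 and the 25.3% given above. They included merging of peaks closer than 1 kb, overlap by midpoint, other classes of length and GC, and 5 or 20 bordering genes a side. No paired analysis was possible because the files hold 1 peak list. The count of 1 rests on a single narrow peak, and with positions alone neither its strength nor the depth behind the 96 genes without a peak can be stated.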
